A study of Mus musculus with 8 samples.

Results

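The genes described here are the protein components of the cytosolic ribosome and their paralogs in the mouse testis. They were taken by name: protein-coding genes whose symbol begins with Rpl or Rps and a digit, or with Rplp, or is Rpsa, without the pseudogene names and the S6 kinases. Of the 55414 genes in the deposited table, 393 had symbols of this form. Removing 291 pseudogene names, 9 kinases and 7 genes that GENCODE vM21 does not list as protein-coding left 86 members. They comprised 43 large subunit genes, 31 small subunit genes, the 3 genes of the stalk, 8 paralogs and Rps19bp1, which the letters of the rule also caught and which encodes a binding partner of Rps19 rather than a ribosomal protein. The 77 large subunit, small subunit and stalk genes are called canonical below.

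RNA from whole mouse testis was sequenced in 8 samples, 4 labelled control and 4 labelled valine, an essential branched-chain amino acid, to ask what valine does to the testis. No genotype, strain, age, dose, route or duration was given in the sources used here. Nothing there says whether the 4 samples of a group came from separate animals, so p-values measure only how these samples vary, and that variation could be technical. The values are FPKM, in which the fragments of a gene are divided by its length and scaled to library size, so they compare genes per length. No read counts were used here and the depth behind each value is unknown.

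A ribosome carries a single copy of nearly every ribosomal protein, so the genes are known for being expressed together at high levels, and most of their messenger RNAs begin with a run of pyrimidines (the TOP motif) through which growth signals such as mTOR control their translation. Most ribosomal protein genes also have many processed pseudogenes, intron-less copies made by reverse transcription of the messenger RNA, to which sequencing reads of the parent can align. In the male germ line the X chromosome is silenced during meiosis, and several X-linked ribosomal protein genes have autosomal retrocopies that are known to be expressed in these cells, among them Rpl10l and Rpl39l.

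The ribosomal protein genes were higher in the valine testes more often than lower. Of the 86 members, 30 were higher and 1, Rps4x, was lower at an adjusted p below 0.05 in a limma test of log2(FPKM + 1) across the 22077 genes whose mean reached 1 FPKM, a filter that all 86 members passed. The background was 4.32% of all tested genes called higher and 4.41% called lower. The median log2 change of the members was 0.22, against 0.02 for all tested genes, and the change was positive for 76 members and negative for 10. All 4 valine values lay above all 4 control values for 42 members, against 8.99% of all tested genes, and below them for 1 member, against 9.39%. The median of the members' control means was 110 FPKM, while the background reaches down to a mean of 1 FPKM. With the minimum at 5 FPKM, 1110 of 13567 genes were higher and 732 lower, with a median log2 change of 0.05. Of the members, 32 were then higher and 1 lower, with a median of 0.24. In whole-tissue RNA, more cells of a type and more RNA per cell cannot be told apart.

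The number of calls depended on how the samples were scaled and on single samples, while the median of the members stayed above 0. Summed over all genes, FPKM came to 944660 to 974630 per control sample and 1027700 to 1070500 per valine sample. With each sample scaled to the same total, 15 members were higher and 2, Rpl10 and Rps4x, were lower, with a median of 0.12. That scaling moved the median of all tested genes to -0.08 and called 1.64% of all genes higher and 9.16% lower. After quantile normalisation, 12 members were higher and 1 was lower, against 1.8% and 4.66% of all genes. Without control replicate 1, control replicate 2, valine replicate 1 or valine replicate 4, in turn, 14, 17, 13 and 18 members were higher, and over all genes the number called higher fell alongside, from 954 to 379, 465, 413 and 583. Without any 1 of the other 4 samples, 21 to 27 members and 592 to 794 of all genes were higher.

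**Figure D1:**
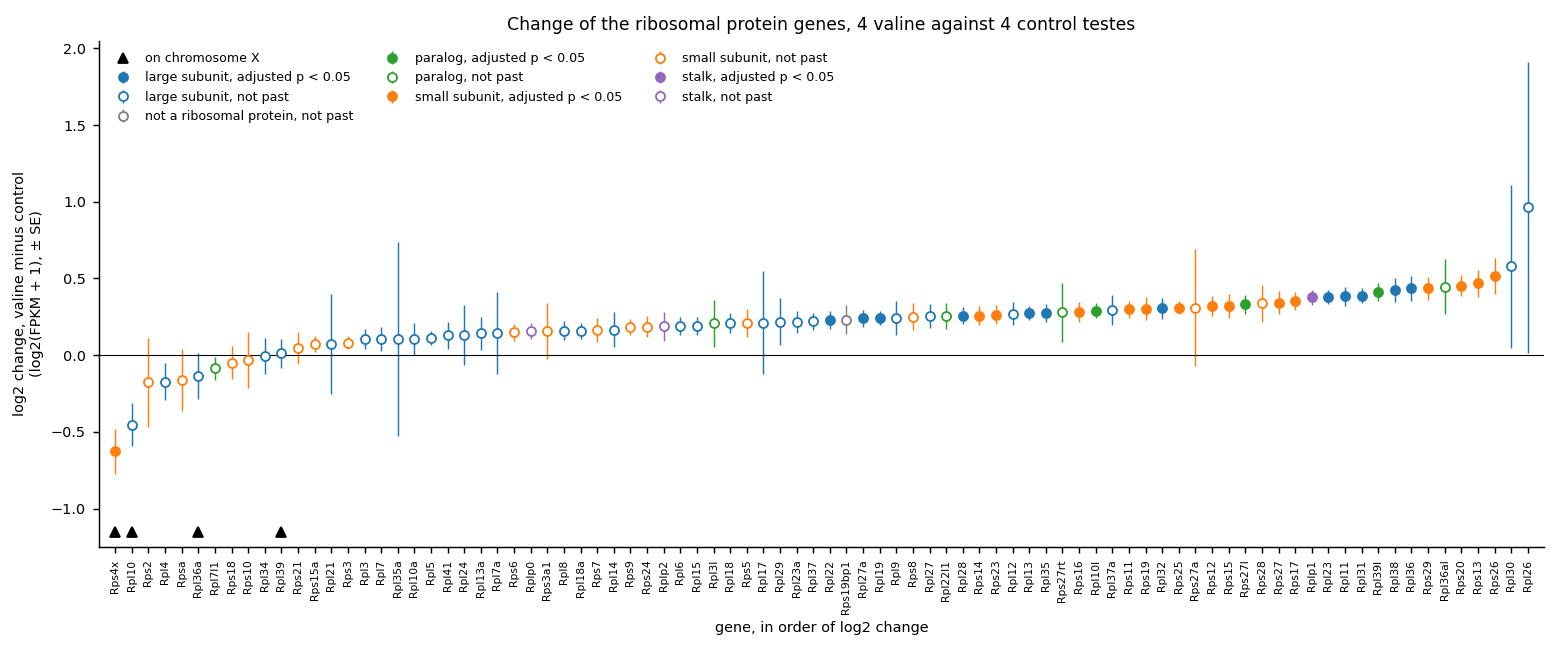
Log2 change, valine minus control, of each of the 86 members on the log2(FPKM + 1) scale, in order of size, with bars of ± 1 standard error from the fit, colours for the gene class and filled points for an adjusted p below 0.05. Triangles mark the 4 canonical genes on the X chromosome. The filled points lie between 0.2 and 0.6 except Rps4x at -0.63, and Rpl26, Rpl30 and Rpl35a carry the widest bars.

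The ribosomal protein genes took a larger share of the summed FPKM in every valine sample than in any control sample. The share of the 86 members was 1.26% to 1.34% in control and 1.39% to 1.46% in valine. The median FPKM of the 77 canonical genes was 106, 116, 116 and 123 in control replicates 1 to 4 and 142, 135, 131 and 141 in valine replicates 1 to 4, and the groups did not overlap.

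The paralogs with the highest expression, Rpl39l and Rpl10l, both rose. Rpl39l, the retrocopy of the gene for the tunnel protein Rpl39, is known to be needed for normal sperm formation. Its FPKM was 391, 425, 408 and 438 in the control samples and 537, 517, 554 and 604 in the valine samples. All valine samples were above all control samples, with a log2 change of 0.41 ± 0.0587 (SE, n = 4 per group, limma adjusted p = 0.00688). Rpl10l is the retrocopy of Rpl10, a large subunit protein added late in assembly, and is known to be needed for male meiosis. Its FPKM was 365, 375, 379 and 409 in the control samples and 474, 441, 473 and 480 in the valine samples. The groups again did not overlap, with a log2 change of 0.29 ± 0.049 (SE, n = 4 per group, limma adjusted p = 0.0118). The Rpl10l call was lost after quantile normalisation (limma adjusted p = 0.102) and after removal of a trend with gene length (limma adjusted p = 0.0811).

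The reading frames below show how far each retrocopy has moved from its parent, since that decides whether a sequenced fragment can be assigned to 1 of the 2 genes. They are the coding strand from GENCODE vM21, 5′ to 3′, and capitals mark the bases that differ between copy and parent. For Rpl39l (chromosome 16, 1 coding exon) and Rpl39 (chromosome X, 3 coding exons) the whole frame of 156 bases is given.
Rpl39l: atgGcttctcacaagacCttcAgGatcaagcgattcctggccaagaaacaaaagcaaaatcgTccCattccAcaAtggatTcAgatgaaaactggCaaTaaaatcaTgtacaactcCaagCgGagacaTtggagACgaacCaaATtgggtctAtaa
Rpl39: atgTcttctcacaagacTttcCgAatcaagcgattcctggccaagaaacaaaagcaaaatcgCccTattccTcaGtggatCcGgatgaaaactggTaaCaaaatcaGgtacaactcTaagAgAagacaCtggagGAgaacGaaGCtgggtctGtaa
The frames differ at 23 of 156 bases and are 85.3% identical. For Rpl10l (chromosome 12, 1 coding exon) and Rpl10 (chromosome X, 6 coding exons) the last 150 of 645 bases, positions 496 to 645, are given.
Rpl10l: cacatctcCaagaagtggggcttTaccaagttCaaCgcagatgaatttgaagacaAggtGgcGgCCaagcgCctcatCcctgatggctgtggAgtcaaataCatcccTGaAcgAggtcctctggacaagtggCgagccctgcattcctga
Rpl10: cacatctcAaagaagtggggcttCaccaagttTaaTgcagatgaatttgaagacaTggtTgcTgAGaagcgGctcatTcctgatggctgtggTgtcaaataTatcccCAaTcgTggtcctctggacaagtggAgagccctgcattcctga
This stretch holds 18 of the 98 differing bases, and the whole frames are 84.8% identical.

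None of the 4 X-linked canonical genes, Rpl10, Rpl36a, Rpl39 and Rps4x, was called higher. Rps4x encodes a small subunit protein and was the 1 member called lower. Its FPKM was 26.9, 29.3, 18.1 and 22.2 in the control samples and 13.2, 15.5, 14.8 and 16.8 in the valine samples. Every valine sample was below every control sample, with a log2 change of -0.63 ± 0.146 (SE, n = 4 per group, limma adjusted p = 0.0345). The Rps4x call was kept without control replicate 3 and lost when any other single sample was left out, with limma adjusted p-values from 0.054 to 0.0941. Rpl10 was at 31.9, 36.4, 33.8 and 22.7 FPKM in the control samples and 23.7, 21.3, 20.1 and 23.8 in the valine samples. The groups overlapped through control replicate 4, and the log2 change of -0.45 ± 0.139 did not pass the limma test (SE, n = 4 per group, adjusted p = 0.0815). Without control replicate 4 the Rpl10 change was -0.59 with a limma adjusted p of 0.0116.

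Rpl39 was at 6.51 ± 0.514 FPKM in the control samples and 6.59 ± 0.691 in the valine samples (SD, n = 4), a log2 change of 0.01. Rpl36a, a large subunit protein next to the exit site for transfer RNA, was at 12.5 ± 3.03 and 11.1 ± 1.23 FPKM (SD, n = 4), and the groups overlapped for both genes. Among all 917 tested X-linked genes, 3.16% were called higher and 5.34% lower, and their median log2 change was 0.05, against -0.29 for the 4 X-linked members and 0.22 for the 73 autosomal canonical genes. None of the 4 X-linked members and 27 of the 73 autosomal ones were called higher, and 1 of 4 and 0 of 73 were called lower.

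The ratio of a copy to its parent within a sample is free of the scaling of that sample, apart from the pseudocount. Among the 10 pairs listed, Rps23rg1 and Rps23 were not tested because Rps23rg1 had a mean of 0.0873 FPKM, and the other 9 were tested with a two-sided exact permutation test over the 70 arrangements of 4 against 4 samples, adjusted over the 9 pairs. The smallest p-value this design allows is 0.0286.

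In 3 pairs of a highly expressed autosomal copy and an X-linked parent the ratio was higher in every valine sample than in any control sample, and none passed after adjustment. The log2 ratio of Rpl10l to Rpl10 was 3.48, 3.33, 3.45 and 4.11 in the control samples and 4.27, 4.31, 4.49 and 4.28 in the valine samples. The groups did not overlap, and the ratio was 0.74 higher in valine (exact permutation p = 0.0286, adjusted p = 0.0857). As a ratio of group means of their own rows, Rpl10l stood 12.2-fold above Rpl10 in control and 21.0-fold above it in valine. The Rpl10 row held only 39.4% of the summed FPKM of that row and its near-identical copies, a share not weighted by length. With copies added to both genes, the mean log2 ratio was 2.26 in control and 3.04 in valine. The log2 ratio of Rpl39l to Rpl39 was 5.70, 5.70, 5.87 and 5.91 in the control samples and 6.34, 6.12, 6.11 and 6.21 in the valine samples. It was 0.40 higher in valine without overlap (exact permutation p = 0.0286, adjusted p = 0.0857). The Rpl39 row held 18.2% of the summed FPKM of that row and its copies, again not weighted by length. Rpl39l had 0 copies, and with those of Rpl39 added the mean log2 ratio was 3.48 in control and 3.96 in valine.

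Rps4l is the autosomal copy of Rps4x on chromosome 6, annotated as a transcribed pseudogene in both annotations used here, and therefore no member. Its FPKM was 168, 185, 186 and 218 in the control samples and 254, 228, 223 and 232 in the valine samples (limma log2 change 0.31, adjusted p = 0.0502). The log2 ratio of Rps4l to Rps4x was 2.60, 2.62, 3.3 and 3.24 in the control samples and 4.17, 3.8, 3.82 and 3.71 in the valine samples. It was 0.94 higher in valine without overlap (exact permutation p = 0.0286, adjusted p = 0.0857). With near-identical copies of the members added, the p-value for Rpl39l over Rpl39 was 0.0571 (exact permutation test). It remained 0.0286 for Rpl10l over Rpl10 and for Rps4l over Rps4x. Rpl39l had 0 copies, and Rps4l was not searched for copies, so in their ratios only the parent gained copies.

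The other 6 pairs overlapped between the groups. From own rows, Rpl36al, the autosomal retrocopy of Rpl36a, was expressed below its parent, at 2.76 ± 0.527 FPKM in control and 4.19 ± 1.21 in valine (SD, n = 4). Its log2 ratio was 0.58 higher in valine (exact permutation p = 0.0857, adjusted p = 0.154). The own rows held 14.2% (Rpl36al) and 37.1% (Rpl36a) of the summed FPKM with copies. With copies added to both genes, the mean log2 ratio was -0.63 in control and -0.14 in valine. Rpl36al then stood above Rpl36a in valine replicates 1 and 4. The ratio of Rpl7l1, an assembly factor of the large subunit related to Rpl7, to Rpl7 was 0.19 lower (exact permutation p = 0.0857, adjusted p = 0.154). The ratios of Rpl3l to Rpl3, Rpl22l1 to Rpl22, Rps27l to Rps27 and Rps27rt to Rps27 differed by 0.10, 0.03, -0.01 and -0.06, with exact permutation p-values of 0.6, 0.857, 1.0 and 0.83.

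**Figure D2:**
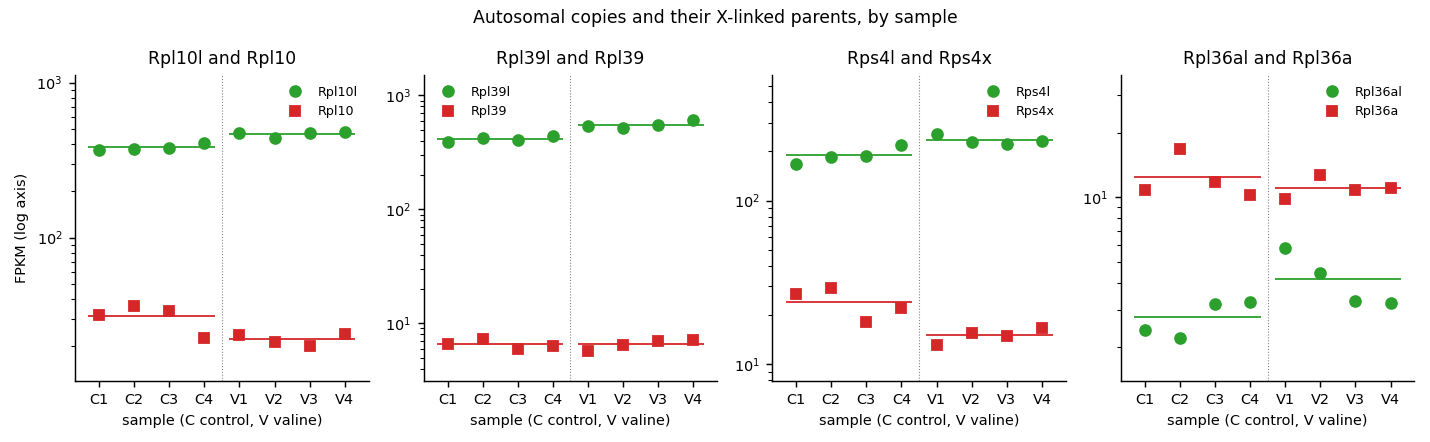
FPKM on a log axis in each control (C1 to C4) and valine (V1 to V4) sample for 4 autosomal copies (green circles) and their X-linked parents (red squares), with lines at the group means. Values are from own rows, without copies. Rpl10l, Rpl39l and Rps4l stand above their parents in all 8 samples and higher in valine than in control, while Rpl36al stands below Rpl36a in all 8 samples.

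Of the 8 paralogs, Rpl39l, Rpl10l and Rps27l were called higher and 5 were not called. Rpl36al did not pass from its own row (limma adjusted p = 0.164). With its copies added it was higher by 0.50 (limma adjusted p = 0.0339). Rps27l, a small subunit paralog known as a p53 target, was at 75.0, 80.4, 72.6 and 69.9 FPKM in the control samples and 86.3, 97.0, 94.2 and 98.3 in the valine samples. The groups did not overlap (log2 change 0.33, limma adjusted p = 0.0168), and its parent Rps27 rose by 0.34 (limma adjusted p = 0.0301), a call kept without control replicate 4 or valine replicate 3 and lost when any other single sample was left out. The Rps27l and Rps27 calls were both lost with equal totals (limma adjusted p = 0.0648 and 0.0734), after quantile normalisation (limma adjusted p = 0.0627 and 0.106) and with the trend on gene length taken out (limma adjusted p = 0.0957 and 0.0956). Rps27rt has a coding sequence identical to that of Rps27 at all 255 bases, so reads of the 2 genes cannot be told apart within the frame. Its FPKM ranged from 64.5 to 90.9 in control and from 74.5 to 134 in valine.

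Rpl22l1, a paralog of the RNA-binding protein Rpl22, was at 15.6 ± 0.87 FPKM in control and 18.8 ± 1.99 in valine (SD, n = 4), without overlap and without passing the limma test (log2 change 0.26, adjusted p = 0.102). Rpl22 itself rose by 0.23 (limma adjusted p = 0.0416), a call that was lost whichever single sample was left out, with equal totals and after quantile normalisation. Rpl3l, known from striated muscle, was at 2.68 ± 0.468 and 3.27 ± 0.683 FPKM, and Rpl7l1 at 24.5 ± 1.83 and 23 ± 1.73 FPKM in control and valine (SD, n = 4), with overlap for both. In the order of mean level, Rpl39l and Rpl10l stood above every other paralog in all 8 samples, and Rpl36al and Rpl3l formed the low end with overlapping values.

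In the large subunit, 12 of 43 canonical genes rose, none fell, and the median log2 change was 0.21. The rises with the smallest p-values were in Rpl23 and Rpl31. Rpl23, which lies on the face that meets the small subunit and is known to bind Mdm2, was at 131, 140, 146 and 137 FPKM in the control samples and 182, 177, 181 and 183 in the valine samples. The valine values were closer to each other than the control values and all above them (log2 change 0.38 ± 0.0447 SE, n = 4 per group, limma adjusted p = 0.00402). Rpl31, which lies at the exit of the peptide tunnel, was at 127, 138, 126 and 137 FPKM in the control samples and 170, 169, 172 and 180 in the valine samples, again without overlap (log2 change 0.39, limma adjusted p = 0.0048).

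Rpl11, a partner of the 5S ribosomal RNA and another Mdm2 binder, was at 165, 173, 167 and 175 FPKM in control and 224, 205, 212 and 248 in valine. Its groups did not overlap (log2 change 0.38, limma adjusted p = 0.0105). Rpl36 and Rpl38 had the largest rises of the large subunit past the threshold, at 0.43 and 0.42. Rpl36 rose from 658 ± 47.5 to 892 ± 91.9 FPKM (SD, n = 4, limma adjusted p = 0.0176), and the call was lost without control replicate 1 or valine replicate 1. Rpl38, known for a role in translating Hox messenger RNAs, rose from 156 ± 8.91 to 210 ± 20.5 FPKM (SD, n = 4, limma adjusted p = 0.0151). After removal of a trend with gene length, the limma adjusted p-values were 0.0723 for Rpl36 and 0.0753 for Rpl38.

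In the small subunit, 14 of 31 canonical genes rose, Rps4x fell, and the median log2 change was 0.26. Rps20, a protein of the head of the subunit, was at 98.5, 116, 113 and 111 FPKM in the control samples and 147, 141, 149 and 164 in the valine samples. The groups did not overlap (log2 change 0.45, limma adjusted p = 0.00778). Rps29, a small zinc-binding protein of the head, was at 164, 178, 160 and 183 FPKM in control and 229, 229, 208 and 263 in valine, also without overlap (log2 change 0.44, limma adjusted p = 0.0142). Rps15, which reaches toward the decoding site, rose from 470 ± 38.2 to 588 ± 48.9 FPKM (SD, n = 4, log2 change 0.32, limma adjusted p = 0.041), and the call was kept without control replicate 3 or valine replicate 2 and lost when any other single sample was left out. The Rps15 call was also lost with equal totals, after quantile normalisation and with the trend on gene length taken out (limma adjusted p = 0.105, 0.258 and 0.219).

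The largest rise past the threshold, in Rps26, and the next, in Rps13, were in rows that share sequence with pseudogenes. Rps26, which lines the path of the messenger RNA, was at 178, 138, 194 and 147 FPKM in the control samples and 238, 211, 221 and 266 in the valine samples (log2 change 0.51 ± 0.118 SE, n = 4 per group, limma adjusted p = 0.0336). The call was kept without control replicate 3 and lost when any other single sample was left out, and it was lost under the 3 rescalings of equal totals, quantile normalisation and the length trend. The lower control values were those of replicates 2 and 4, in which the pseudogene Rps26-ps1, 99.4% identical to Rps26 in its frame, was at 146 and 144 FPKM, against 12.2 and 5.28 in the other two. With the FPKM of the copies added, the log2 change of Rps26 was 0.06 (limma adjusted p = 0.868). These sums were 195, 296, 201 and 302 FPKM in the control samples and 248, 231, 237 and 303 in the valine samples. Such sums are not weighted by row length and do not count fragments. They therefore cannot show whether the rise is absent once copies are counted. Rps13 rose from 89.4 ± 7.99 to 124 ± 13.0 FPKM (SD, n = 4, log2 change 0.47, limma adjusted p = 0.018) and changed by 0.25 with its copies added (limma adjusted p = 0.177). The Rps13 call was also lost without control replicate 1 or valine replicate 1.

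In the stalk, which recruits the elongation factors, Rplp1 rose and Rplp0 and Rplp2 did not pass the test. Rplp1 was at 471, 505, 493 and 474 FPKM in the control samples and 661, 633, 581 and 652 in the valine samples, without overlap (log2 change 0.38, limma adjusted p = 0.00575). Rplp0, the member with the highest mean level, was at 1016, 931, 903 and 995 FPKM in control and 1030, 1074, 1061 and 1118 in valine. The groups did not overlap, yet the log2 change of 0.16 did not pass (limma adjusted p = 0.0881) and was -0.04 after quantile normalisation. Rplp2 was at 64.4 ± 5.06 and 73.8 ± 9.16 FPKM (SD, n = 4), well below Rplp1 in every sample, with overlap between the groups.

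Across the 19 alternatives, which changed the pseudocount, filter, scaling, moderation, replicate block or copies or left out 1 sample, 8 members were called higher in every one. They were Rpl11, Rpl23, Rpl31, Rpl39l, Rplp1, Rps20, Rps25 and Rps29. Rps25, a small subunit protein known for its part in internal initiation, was outside the rule for named genes and was added for this reason. It was at 127, 129, 129 and 129 FPKM in the control samples and 153, 159, 157 and 169 in the valine samples (log2 change 0.31, limma adjusted p = 0.00606).

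**Figure D3:**
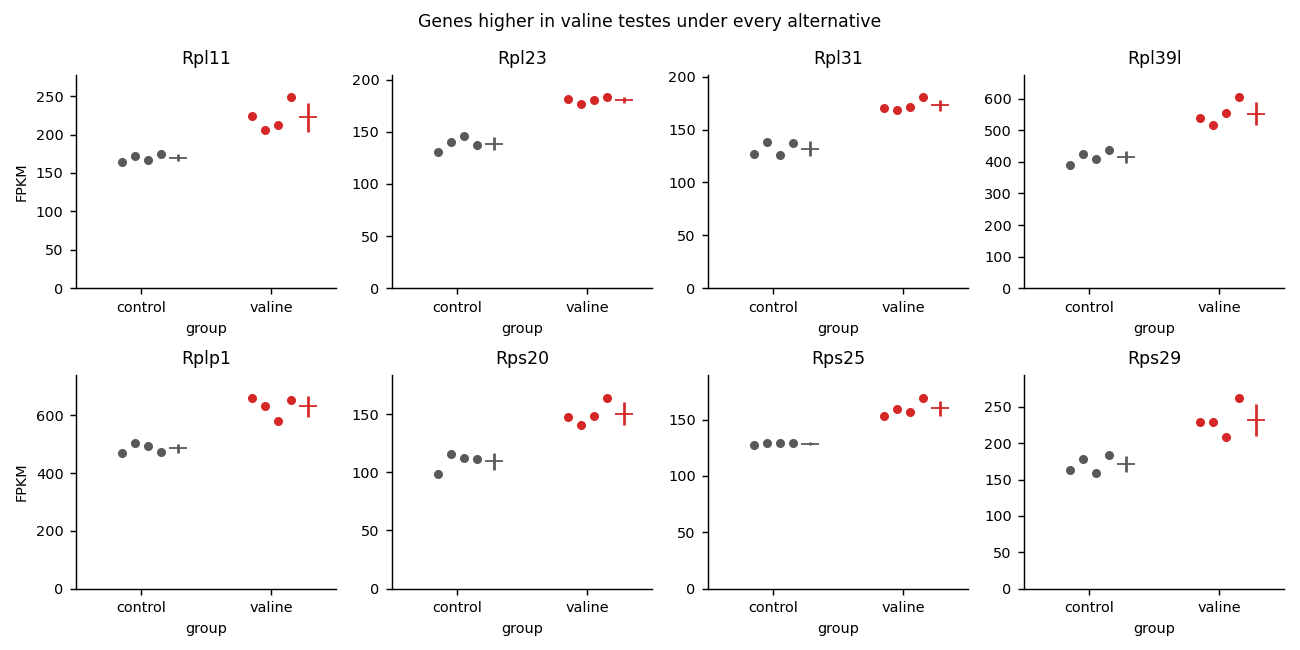
FPKM of the 8 members called higher under every alternative, on axes that start at 0, with 1 point per sample and crosses for the mean ± SD of the 4 control (grey) and 4 valine (red) samples. In each panel all 4 valine points lie above all 4 control points.

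The canonical genes spanned a wide range of levels, though each ribosome needs nearly all of their products in equal number. The 5 members with the highest means were Rplp0, Rpl36, Rpl41, Rplp1 and Rps15. Rpl41, whose product is the smallest of the ribosome, was at 641 ± 63.8 FPKM in control and 701 ± 59.5 in valine (SD, n = 4), and its log2 change of 0.13 did not pass (limma adjusted p = 0.395). The canonical genes at the low end were Rps10, Rpl24 and Rpl34, with means over all 8 samples of 1.58, 1.87 and 2.56 FPKM, and their control and valine values overlapped. Rps10, Rpl34 and Rps18 were also among the 5 members with the log2 change closest to 0, with -0.03, -0.01 and -0.05, beside Rpl39 at 0.01 and Rps21 at 0.05.

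For these low genes most of the FPKM lay in other rows. Near-identical copies had at least 90% identity over at least 80% of the member's coding sequence. They were found for 78 of the 86 members, 990 rows in all. Each copy was counted only for its closest member, and members were not counted as copies of each other. Rps27 and Rps27rt have identical frames, so their 8 copies were equally close to both. The order of gene identifiers put all 8 with Rps27rt, an arbitrary choice that left Rps27 as a member without copies. The member's own row held 0.169% of the summed FPKM of row and copies for Rpl21, 0.382% for Rpl29, 0.453% for Rpl34, 0.722% for Rpl35a and 1.1% for Rps10. These are shares of FPKM and not of fragments, since a fragment adds more FPKM to a short row than to a long one. The annotated exon length was 2643 bases for Rpl34 and 354 for its copy Rpl34-ps1. It was 3526 bases for Rpl35a and 333 for its copy Gm10243. The copies' part of the fragments is therefore smaller than these shares imply. The pseudogene Gm8210, 99.4% identical to Rpl29, was at 777 to 901 FPKM in control and 907 to 1053 in valine, while Rpl29 itself was at 6.02 to 7.89 and 6.84 to 10.8. Rpl34-ps1, 99.4% identical to Rpl34, was at 403 to 461 FPKM in control and 463 to 537 in valine. Rplp2, these rows and the further genes of the next paragraphs were named after their values were seen.

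Several members jumped between samples while a copy moved the opposite way. Rpl26 was at 20.8, 18.1, 166 and 22.4 FPKM in the control samples and 24.2, 186, 198 and 24.2 in the valine samples. Its 99.5% identical pseudogene Gm15772 was at 981, 1050, 523 and 1102 FPKM in control and 1267, 615, 684 and 1382 in valine. The 3 samples with high Rpl26 were the 3 with the lowest Gm15772, and they included samples of both groups. Rpl35a was high in control replicate 1 (38.5 FPKM) and valine replicate 3 (46.2 FPKM), the 2 samples in which its copy Gm10243 was lowest, at 297 and 337 FPKM. The Rps2 row was low, at 83.9, 98.9 and 91.9 FPKM, in control replicate 1 and valine replicates 1 and 3, where Rps2-ps13 was high, at 265, 319 and 289 FPKM. Rps3a1 was lowest in control replicates 1 and 2 and valine replicate 4, where Rps3a2 was at 86.5, 90.7 and 96.1 FPKM.

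**Figure D4:**
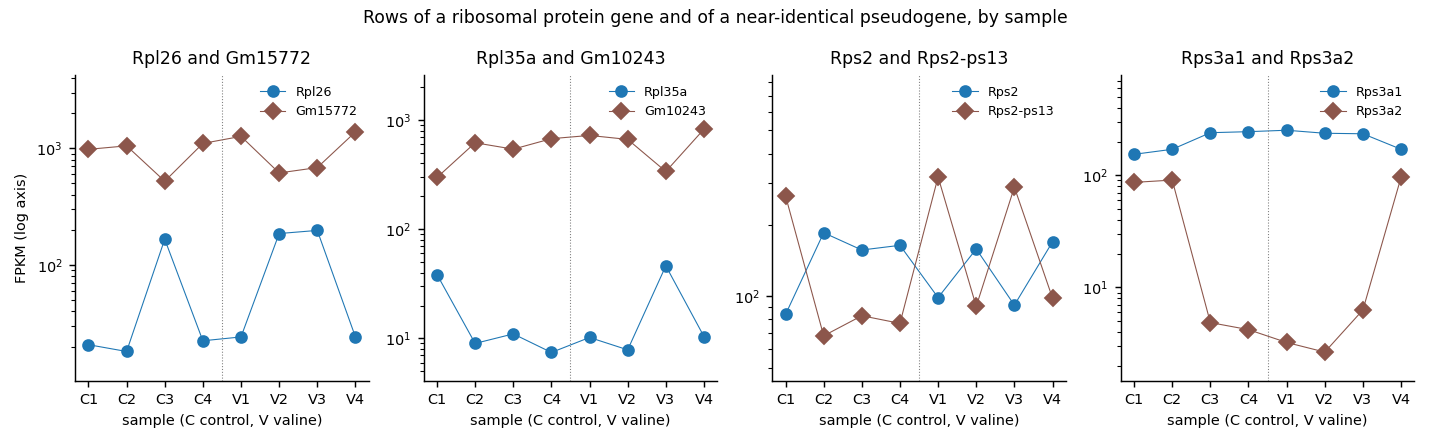
FPKM on a log axis in each control (C1 to C4) and valine (V1 to V4) sample for 4 ribosomal protein genes (blue circles) and a near-identical pseudogene of each (brown diamonds), joined by lines only to guide the eye. Where the gene's value jumps up the pseudogene's drops, and the samples concerned belong to both groups.

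Adding the FPKM of the copies to each member, without weighting by row length, kept the direction of the main counts. With copies summed, 35 members were higher and 2, Rpl10 and Rps4x, were lower, against 4.34% and 4.53% of all 21760 genes then tested, and the median log2 change was 0.25. Of the 30 members called higher from their own rows, 26 were called with copies, and Rps13, Rps19, Rps26 and Rpl27a were not. Among the 48 canonical genes whose own row held at least 50% of this summed FPKM, 23 were higher and 1 was lower from their own rows. Among the 29 with a smaller share, 4 were higher from their own rows and 9 with copies summed. Rpl29, Rpl21 and Rpl17 were not past the threshold on their own and were higher with their copies, by 0.29, 0.25 and 0.35 (limma adjusted p = 0.0312, 0.0471 and 0.0219). The sum of all copies was 1.45% to 1.74% of the total FPKM in control and 1.67% to 1.93% in valine, with overlap.

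The median change was larger among the short canonical genes than among the long ones. Of the 26 with the shortest coding sequences, 78 to 408 bases, 13 rose and the median log2 change was 0.30. Of the next 26, 408 to 579 bases, 12 rose with a median of 0.26. Of the 25 longest, 585 to 1260 bases, 2 rose and Rps4x fell, with a median of 0.15. Rpl4, the longest at 1260 bases, was at 305 ± 55.5 FPKM in control and 267 ± 14.0 in valine (SD, n = 4), with overlap.

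Spearman's rho between log2 change and coding length was -0.467 across the 77 canonical genes, -0.323 with copies summed, and -0.365 across all 14439 tested protein-coding genes with a coding length. Among the 6931 of those no longer than the longest member it was -0.219. Against mean level, rho of the log2 change was 0.406 across the 77 canonical genes. The genes share the same 8 libraries and a value divided by gene length, and they are not independent replicates. After a trend of log2 change with exon length was removed from every sample, 14 members were higher and 1 was lower, against 2.84% and 2.88% of all genes, with a median of 0.17, and rho was -0.400. The exon length used here joins all annotated exons of a gene and can be far from the length of its messenger RNA. For Rps20 it was 4080 bases, with 360 coding bases, and the log2 change went from 0.45 to 0.51 when the trend was removed. The part of transcript length in the members' calls was therefore not tested.

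**Figure D5:**
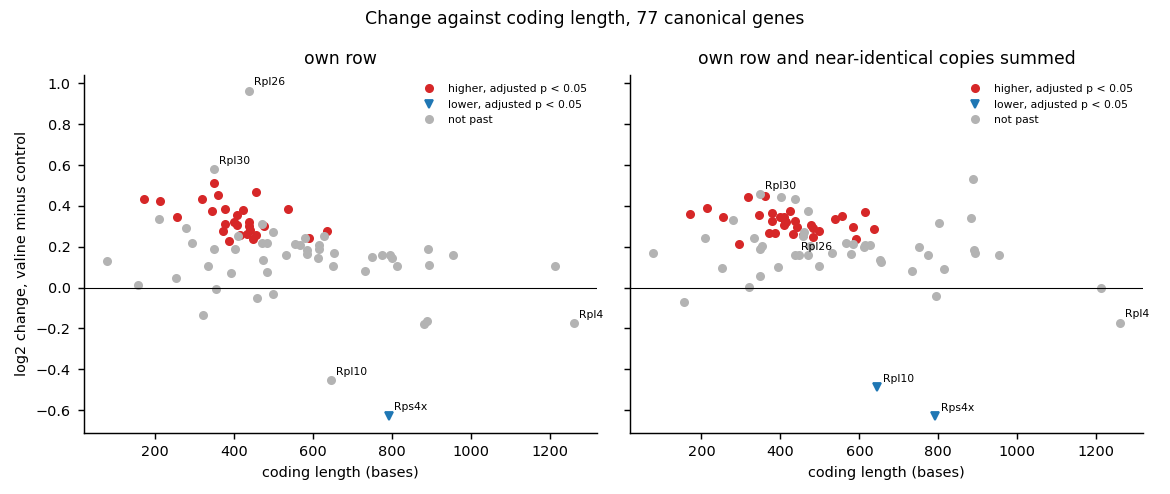
Log2 change, valine minus control, against coding length in bases for the 77 canonical genes, from their own rows (left) and with near-identical copies summed (right). Red points (higher) and blue triangles (lower) mark an adjusted p below 0.05, and nearly all red points lie at short lengths, while Rpl26 and Rpl30 come down when copies are added.

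The starts of the genes were read for the pyrimidine run that is typical of ribosomal protein genes. A run of at least 8 C or T bases on the coding strand within 50 bases on either side of the start in the RefSeq GRCm38.p6 table was present in 48 of the 57 canonical genes and 5 of the 8 paralogs found there. Among all 27025 genes in the table, 39.3% held such a run. On the other strand the same search found it in 14 of the 57 canonical genes, against 41.1% of all genes. A match is a description of letters and not evidence of use. The 30 bases around the longest run are given for the X-linked parents Rpl10, Rpl39 and Rpl36a with their retrocopies, for Rps4x, the member called lower, and for the 4 canonical members called higher in every alternative that the table holds, with the run in capitals, on the strand of the gene.
Rpl10 (chrX:74270836-74270865, plus strand): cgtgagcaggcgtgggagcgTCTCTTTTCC
Rpl10l (chr12:66284422-66284451, minus strand): ctatgaTTCCCgcaaggcttgatgggtaac
Rpl39 (chrX:37085173-37085202, minus strand): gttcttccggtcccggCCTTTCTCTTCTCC
Rpl39l (chr16:10170192-10170221, plus strand): acacccactgCCTCTCCCTagctcccaggc
Rpl36a (chrX:134585673-134585702, plus strand): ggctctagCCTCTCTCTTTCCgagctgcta
Rpl36al (chr12:69184020-69184049, minus strand): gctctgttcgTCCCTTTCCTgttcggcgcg
Rps4x (chrX:102189342-102189371, minus strand): cgcgcagcctccgaccctaaTTTCTTCgtt
Rpl11 (chr4:136053357-136053386, minus strand): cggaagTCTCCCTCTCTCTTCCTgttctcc
Rpl23 (chr11:97782404-97782433, minus strand): gagtgggcggggCCTCCCgttcatatccca
Rpl31 (chr1:39367825-39367854, plus strand): tcgccacaCCTCTTCCTCCTCgcctccccg
Rps25 (chr9:44407684-44407713, plus strand): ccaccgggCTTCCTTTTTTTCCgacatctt
Within the bases searched, the runs of the parents Rpl10, Rpl39 and Rpl36a were 10, 14 and 13 bases long. Those of their retrocopies Rpl10l, Rpl39l and Rpl36al were 5, 9 and 10. The runs of Rpl10 and Rpl39 reached the end of the search, 50 bases after the start, and may be longer. The Rpl10l run lay toward the other end, before the start, so these lengths do not compare like positions. The run of Rps4x was 7 bases long. Among the members called higher, those of Rpl11, Rpl31 and Rps25 were 17, 13 and 14 bases long and that of Rpl23 was 6, below the minimum searched for.

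Other genes of translation were counted in the same fit. Of 24 translation factors and other TOP messenger RNAs, 5 rose, 1 fell, and the median log2 change was 0.15. Over all tested genes, 4.32% rose, 4.41% fell and the median was 0.02. Fau, which encodes the small subunit protein S30 fused to a ubiquitin-like domain, was at 297, 366, 317 and 317 FPKM in the control samples and 389, 402, 389 and 448 in the valine samples. The groups did not overlap (log2 change 0.33, limma adjusted p = 0.0314), and the call was kept without control replicate 2 and lost when any other single sample was left out. Rack1, a scaffold on the small subunit, did not pass the test, with a log2 change of -0.08 (limma adjusted p = 0.401).

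Eif4ebp1, the repressor of the cap-binding factor that mTOR inactivates, rose from 9.43, 9.20, 8.49 and 10.1 FPKM to 12.8, 13.3, 11.3 and 13.8 (log2 change 0.42, limma adjusted p = 0.0208). Larp1, which binds TOP messenger RNAs, was at 247, 217, 256 and 241 FPKM in control and 199, 197, 201 and 191 in valine (log2 change -0.28, limma adjusted p = 0.0193). Neither pair of groups overlapped. The Eif4ebp1 call was lost without control replicate 1 or 2 or valine replicate 1, 2 or 4, and the Larp1 call without control replicate 1 or valine replicate 1 or 4. Eif3h, a subunit of initiation factor eIF3, rose by 0.30 (limma adjusted p = 0.0124).

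Of 30 genes for ribosome biogenesis, 2 rose, none fell, and the median log2 change was -0.01. Over all tested genes 4.32% rose and the median was 0.02, so as a list these genes stood near the background. Polr1c, a subunit shared by RNA polymerases I and III, was at 47.0, 53.0, 51.9 and 52.1 FPKM in control and 64.8, 61.3, 66.1 and 58.2 in valine (log2 change 0.29, limma adjusted p = 0.025). Sbds, which helps release the anti-association factor eIF6 from new large subunits, was at 96.0, 95.7, 99.7 and 104 FPKM in control and 118, 118, 117 and 118 in valine (log2 change 0.25, limma adjusted p = 0.0117). The groups did not overlap for either gene. The Polr1c call was lost without control replicate 1 or valine replicate 1, 2 or 3. With equal totals or quantile normalisation, the calls of Fau, Eif3h, Polr1c and Sbds were lost, and with the trend on gene length taken out, those of Fau, Eif3h and Larp1.

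Markers of other cell states moved in the same samples, where 4.32% of all tested genes were called higher and 4.41% lower. Of 14 elongating spermatid markers, 11 rose and none fell, and their summed FPKM was 48688 to 50767 in control and 61268 to 73854 in valine. All 12 Leydig cell markers fell, with a sum of 1709 to 2399 FPKM in control and 553 to 853 in valine. Of the other lists, 4 of 12 round spermatid, 2 of 14 spermatocyte and 1 of 14 Sertoli markers rose, and 1 round spermatid, 1 spermatocyte, 2 of 13 spermatogonium, 1 Sertoli, 3 of 8 peritubular myoid, 6 of 9 stroma, 5 of 9 macrophage and 4 of 6 endothelium markers fell. None of the 6 red blood cell markers passed the test. No marker in these lists was at 0 in every sample, and testis germ cell and Sertoli markers were expressed in all 8 samples. The part of the cell makeup of the samples in the changes of the ribosomal protein genes was not tested.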

How the data were processed

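The authors deposited 1 table of FPKM values for 8 testis samples, with 0 per-sample columns left unused. Libraries were made with a TruSeq kit from total RNA, per the labels' protocols, and reads were aligned with HISAT2 to GRCm39, per the submitters' processing notes. The aligner version, quantifier, annotation, strand setting and treatment of reads with several alignments are not given in the sources used here. Because FPKM is scaled by gene length and library, values share a scale within a sample, and they depend on how reads of near-identical copies were placed. Absolute depth is unknown.

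Columns were matched to samples by group and replicate number. Symbols came from gene tables, and gene type, coding sequence and lengths from GENCODE vM21 (GRCm38), joined by Ensembl identifier. An exon length, the joined length of all annotated exons of a gene, was found for 98.2% of tested genes. Values were tested as log2(FPKM + 1) for the 22077 genes whose mean reached 1 FPKM with limma 3.58.1 in R 4.3.3 (2 groups, no covariate, moderation with a trend, two-sided, Benjamini-Hochberg at 0.05), and members were read from that fit. A fold change on this scale understates the change of low genes. Copies were found with BLAST 2.17.0, and their FPKM was added to that of the member without weighting by length. Ratios of paralog to parent were tested by exact permutation over 70 arrangements. On simulated data for this comparison with all 22077 genes, the fit recovered 32% of log2 changes of 0.5 and 75% of those of 1, with 5 false calls.

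Members, lists and pairs were chosen with earlier results of these data known. Named genes were the paralogs and their parents, X-linked members, members past the threshold downward, the 10 largest rises past it, the 5 highest and 5 lowest members by mean, the 5 changes closest to 0 and up to 4 genes of each of the other 2 pathway lists. Alternatives were a pseudocount of 0.1, no filter or a minimum of 5 FPKM, equal totals, equal medians, quantile normalisation, removal of a length trend (loess, span 0.3), array weights, moderation without the trend, a replicate block, each sample left out, and near-identical copies summed.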

Additional observations from a re-analysis of the deposited data

Results flagged for a closer look

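Among 98 groups of 4 values checked for the named genes and ratios, 2 held a value that stood apart from the other 3 by more than Dixon's critical value at the 95% level, where chance gives about 1 in 20 groups. For Rpl41 in the valine samples, the FPKM of 612 in replicate 2 lay below 737, 729 and 726, and the gap was 0.915 of the range. For the log2 ratio of Rps27l to Rps27 in the control samples, replicate 4 at -1.20 lay below -0.998, -0.997 and -1.01, and the gap was 0.925 of the range. Neither result passed a test between the groups.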

How the results depend on the processing

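The counts of members, of 30 higher and 1 lower, changed by more than 1.5 times under several alternatives, and the cause was not tested. The number higher was 15 with equal totals, 12 after quantile normalisation, 14 with the length trend removed and 17 without the trend in the moderation. With 1 sample left out it ranged from 13 to 27, and the number lower from 0 to 1. The number lower was 2 with equal totals or with copies summed and 0 without the filter, without the moderation trend or with the replicate block. The median log2 change was 0.12 with equal totals and 0.13 after quantile normalisation. Summing copies was chosen after seeing the data.

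Over all genes, 954 were higher and 974 lower. At a minimum of 5 FPKM, 1110 were higher and 732 lower. The number higher was 568 without the filter, 363 with equal totals, 398 after quantile normalisation, 628 with the length trend removed, 503 without the moderation trend and 379 to 794 with 1 sample left out. The number lower was 2022 with equal totals, 636 with the length trend removed and 454 to 793 with 1 sample left out. Of the translation list, the number higher (5) was 2 without the filter or the moderation trend, 1 with equal totals or quantile normalisation and 1 to 5 with 1 sample left out. The number lower (1) was 2 with equal totals, 3 after quantile normalisation, 0 with the length trend removed or without the moderation trend and 0 to 1 with 1 sample left out. Of the biogenesis list, the number higher (2) was 4 at a minimum of 5 FPKM or with the length trend removed, 0 with equal totals or quantile normalisation, 1 without the moderation trend and 1 to 2 with 1 sample left out. The number lower (0) was 1 with equal totals.

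Samples of the 2 groups share replicate numbers. The deviations of same-numbered samples correlated weakly (-0.017, -0.040, 0.104 and 0.111), and 1 of 4 correlated best with its own number. With 4 samples per group, this cannot show whether same-numbered samples share more than a number. With the replicate block, 21 members were higher and 0 lower, 581 and 489 of all genes were, and 1 biogenesis gene was higher. The exact permutation p of the Rpl10l, Rpl39l and Rps4l ratios was then 0.125, the smallest that 4 pairs allow.

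Ratios near 0 changed sign. With 1 sample left out, the difference ranged from -0.0092 to 0.22 for Rpl3l, -0.036 to 0.094 for Rpl22l1, -0.0802 to 0.061 for Rps27l and -0.29 to 0.0501 for Rps27rt, and it was -0.029 for Rpl22l1 with the length trend removed. Genes that were never past the threshold also changed sign. With equal totals the log2 change was -0.09 for Rpl39, -0.011 for Rpl3, -0.012 for Rpl7 and -0.069 for Rps21. After quantile normalisation it was -0.002 for Rpl7, -0.0022 for Rpl41, -0.037 for Rplp0, 0.033 for Rpl34, 0.0104 for Rps10 and -0.047 for Rps21. With the length trend removed it was -0.076 for Rpl39 and -0.075 for Rps21, and with array weights -0.016 for Rpl39 and 0.0074 for Rpl34. With copies summed it was -0.069 for Rpl39, -0.0022 for Rpl3, 0.0029 for Rpl36a, 0.21 for Rpl34, 0.11 for Rps10 and 0.27 for Rps18. With 1 sample left out it ranged from -0.026 to 0.073 for Rpl39, -0.21 to 0.011 for Rpl36a, -0.054 to 0.071 for Rpl34, -0.16 to 0.078 for Rps10 and -0.029 to 0.13 for Rps21.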
